A study of Ficus obtusifolia with 4 samples.

Results

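Gall flowers and seed flowers of the fig Ficus obtusifolia were compared 24 hours after a foundress wasp had entered the syconium, the closed inflorescence of a fig. The transcripts described here are the 9041 of 54550 assembled transcripts that had an RPKM above 20 in at least 1 of the 2 pollinated libraries and at least 10 reads in each of the 2 receptive libraries. RPKM is the number of reads scaled to transcript length and to the mapped reads of the library, so levels can be compared between transcripts of different length. The receptive libraries came from syconia that no foundress had entered, and the read minimum in them is meant to leave out transcripts of the wasp. Of 9179 transcripts above the RPKM minimum, the read minimum removed 138. The member closest to the RPKM minimum was galactinol synthase Locus 8663 at 20.005, and the closest transcript outside it stood at 19.998. Exactly 10 reads in a receptive library were found for 9 members, and 7 of those removed had 9.

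All flowers came from syconia on a single wild recipient tree, bagged against other wasps. Each pollinated syconium had received 1 foundress of Pegoscapus hoffmeyerii, the pollinating wasp, taken from another tree. Flowers were assigned by position, those nearest the lumen as gall flowers and those nearest the syconium wall as seed flowers, so a pool may hold some flowers of the other type. Each of the 4 kinds of sample was 1 library from pooled flowers of several syconia, which means that no value has a replicate and variation between trees or syconia was not measured. Mapped reads numbered 58969477 in the pollinated gall library, 22141107 in the pollinated seed library, 51063005 in the receptive gall library and 11584069 in the receptive seed library, and members took 79.8% to 82% of them. Ratios are given with exact conditional binomial 95% intervals, which hold for counting error alone, as several reads may stem from 1 molecule. A difference is described as at least 2-fold when the ratio of RPKM reached 2. In pooled tissue, fewer cells of a type and less RNA per cell cannot be told apart.

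In a fig, the pollinator lays its eggs through the styles of some flowers, whose ovaries turn into galls that house a larva, while other flowers set seed. Plant galls are often rich in phenolic compounds. These are made from phenylalanine by the general phenylpropanoid pathway, which feeds the flavonoid branch through chalcone synthase and the lignin branch through the monolignol enzymes. Chitinases, glucanases and protease inhibitors are widespread plant defence proteins that act on the walls or the digestive enzymes of attackers. Peroxidases, listed with them here, oxidise phenolics with hydrogen peroxide.

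Most members had similar levels in both flower types. The ratio of pollinated gall to pollinated seed flowers lay within 2-fold for 7833 members (86.6%). It had a median of 0.920 and quartiles of 0.733 and 1.24. It lay below 1 for 5326 of the 9041 members and above 1 for 3715, the background for counts of list members below or above 1. At least 2-fold higher levels were found for 758 members in gall flowers (8.38%) and for 450 in seed flowers (4.98%), and these shares are the background against which every list is read. Before the read minimum was applied the shares were 9.45% and 4.91% of 9179 transcripts. By Kal's Z-test with Benjamini-Hochberg adjustment, which compares the 2 libraries and not the 2 flower types, they were 10.6% and 7.59%. At least 4-fold higher were 165 and 70 members. The whole counting interval lay past 2 for 657 and 342. Of the members 2-fold apart, 341 in the gall direction and 216 in the seed direction were above the RPKM minimum in the higher library alone, and these had been admitted through the library in which they were high. Gall flowers held 62.7% of the 2-fold differences. This share was 77.7% after TMM scaling, which equalises libraries by a trimmed mean of their ratios and multiplied every ratio by a common factor (a shift of 0.19 on the log2 scale), and 73% with the median ratio set to 1.

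**Figure D1:**
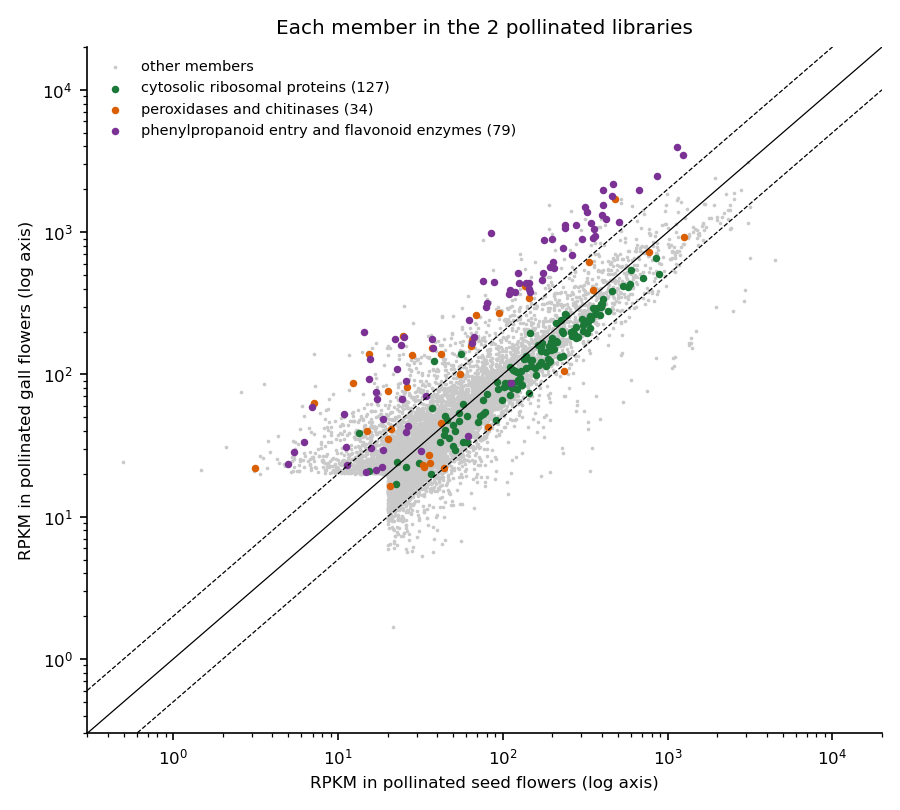
Each point is a member, with its RPKM in pollinated seed flowers on the horizontal and in pollinated gall flowers on the vertical log axis; the solid line marks equal levels and the dashed lines a 2-fold difference. The 79 phenylpropanoid entry and flavonoid transcripts lie mostly above the upper dashed line, and 112 of the 127 cytosolic ribosomal protein transcripts lie below the line of equal levels.

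Enzymes that lead from phenylalanine to flavonoids were higher in gall flowers, with 69 of 79 members at least 2-fold higher there and 0 at least 2-fold higher in seed flowers. Their median ratio was 3.36, against 0.920 over all members. Many of them were short and may be pieces of the same gene: 43 were under 200 bp. Of the 27 with at least 500 bp, 18 were at least 2-fold higher in gall flowers, with a median ratio of 2.72.

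Phenylalanine ammonia-lyase, which removes ammonia from phenylalanine and opens the pathway, had 3 members of 171 to 173 bp. Locus 33084 had an RPKM of 774 in the pollinated gall library, 232 in the pollinated seed library, 1471 in the receptive gall library and 105 in the receptive seed library. The corresponding values, in this order of libraries throughout, were 365, 109, 797 and 21.7 for Locus 30420 and 240.4, 62.4, 669 and 13.5 for Locus 43476. Gall flowers were above seed flowers at both stages, but by less after pollination: the ratios were 3.33, 3.36 and 3.85 in pollinated and 14, 36.7 and 49.7 in receptive flowers. Cinnamate 4-hydroxylase, the P450 that adds the ring hydroxyl in the next step, had 7 members, all at least 2-fold higher in gall flowers. The longest of the 3 most abundant with at least 500 bp, Locus 20929 (1648 bp), stood at 154, 37.8, 225 and 8.64, a ratio of 4.07 (3.85 to 4.30). Locus 17153 was more abundant, at 441, 138, 369 and 123, and had a ratio of 3.19 (3.05 to 3.33), and Locus 21721 at 378, 119, 556 and 22 had one of 3.17 (3.01 to 3.35). 4-coumarate:CoA ligase, which activates coumarate for both branches, differed less. Its members Locus 3363, Locus 1469 and Locus 3332 had ratios of 1.56 (1.44 to 1.69), 1.21 (1.08 to 1.36) and 2.01 (1.85 to 2.20), at an RPKM between 22.5 and 29.4 in pollinated gall flowers.

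Chalcone synthase condenses coumaroyl-CoA with malonyl-CoA and commits carbon to flavonoids. All 33 of its members were at least 2-fold higher in pollinated gall flowers, with ratios from 2.78 to 13.9 and a median of 4.72. Their RPKM after pollination summed to 24573 among gall and 5713 among seed flowers, and 26 of them were under 200 bp. Among those of at least 500 bp, the most abundant, Locus 1491 (1817 bp), had an RPKM of 1124, 278, 1233 and 370.4. Locus 604 stood at 898, 199, 1358 and 124 and Locus 24923 at 316, 79.7, 745 and 23.9. The 3 ratios were close to each other, at 4.04 (3.96 to 4.12), 4.51 (4.38 to 4.64) and 3.97 (3.71 to 4.25) in pollinated flowers, whereas in receptive flowers they were 3.33, 10.9 and 31.1. A rarer form, Locus 7415, had the largest ratio of any member with at least 500 bp, at least 50 reads in each pollinated library and a description that names a function. Its RPKM was 199.6, 14.4, 252 and 3.70, so that both gall libraries were far above both seed libraries, and the pollinated ratio was 13.9 (12.3 to 15.6).

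Chalcone isomerase closes the ring of the chalcone to give a flavanone. Of its 17 members, 15 were at least 2-fold higher in gall flowers, and their median ratio was 2.90. Locus 19337 had an RPKM of 515, 175, 632 and 63.3, Locus 38283 one of 459.9, 174, 556 and 81.2 and Locus 2275 one of 167, 65.1, 227 and 30.6. They were higher in gall than in seed flowers at each stage, with pollinated ratios of 2.95, 2.64 and 2.56. Flavonoid 3'-hydroxylase, which sets the hydroxylation of the B ring, had 5 of 6 members at least 2-fold higher in gall flowers. The most abundant of at least 500 bp, Locus 12598, stood at 401, 144, 577 and 78.6, a ratio of 2.79 (2.68 to 2.90).

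Later enzymes of the flavonoid branch were less uniform. Dihydroflavonol 4-reductase, which makes leucoanthocyanidins, was 7.95 times higher in gall flowers (7.40 to 8.54) for Locus 1263, at 177, 22.2, 146 and 37.7. Here pollinated seed flowers were below both receptive libraries. A second form, Locus 2308, pointed the other way at 36.8, 61.5, 36.2 and 80.9, a seed to gall ratio of 1.67 (1.59 to 1.76), and Locus 6707 had a ratio of 0.911 (0.844 to 0.982). Flavonol synthase took both directions as well. Locus 2181 stood at 67.5, 17.3, 93.8 and 19.96, a ratio of 3.89 (3.56 to 4.27), whereas Locus 2057, described as flavonol synthase and flavanone 3-hydroxylase, stood at 86.4, 112, 85.4 and 38.1, with a seed to gall ratio of 1.30 (1.25 to 1.35). Flavanone 3-hydroxylase words matched 2 members, Locus 2057 and a transcript of under 200 bp with a ratio of 4.73. The RPKM of both together was 1209, 349, 1608 and 76.1, of which Locus 2057 made up the smaller part in pollinated gall flowers. Of 3 reductases that supply units of condensed tannins, 2 were at least 2-fold higher in gall flowers, while leucoanthocyanidin reductase Locus 1941 had a ratio of 1.54 (1.43 to 1.64). No member was described as anthocyanidin synthase or as an anthocyanin acyltransferase.

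**Figure D2:**
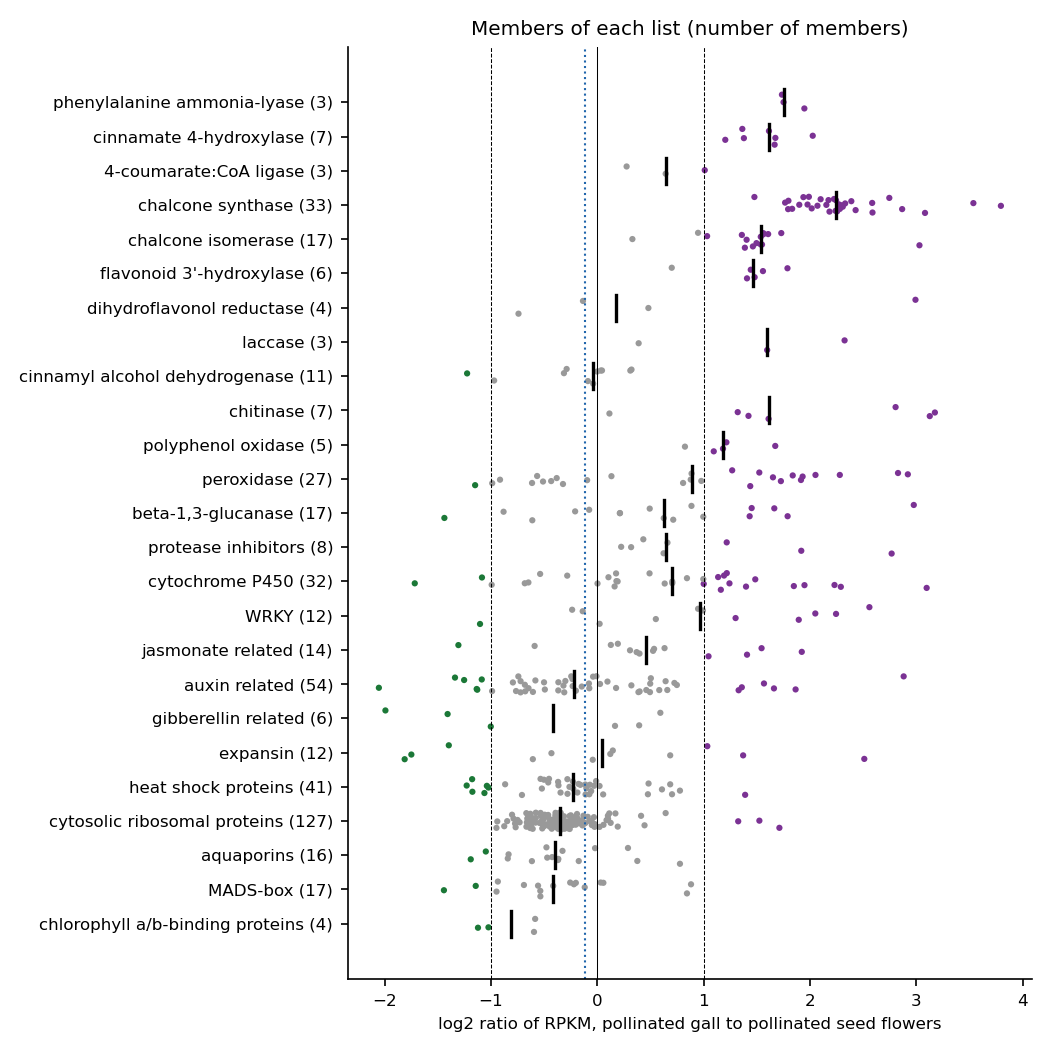
The log2 ratio of pollinated gall to pollinated seed flowers for each member of 25 gene lists (points, spread vertically for legibility), with the list median as a black bar and the number of members in brackets; purple points are at least 2-fold higher in gall and green points in seed flowers, and the dotted line is the median of all members. All 33 chalcone synthase points lie to the right of the 2-fold line, while the 54 auxin related points spread to both sides.

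In the lignin branch, no member in the lists of monolignol enzymes was at least 2-fold higher in gall flowers. Of 11 members described as cinnamyl alcohol dehydrogenase, which makes the lignin alcohols, 0 were at least 2-fold higher in gall and 1 in seed flowers, with a median ratio of 0.973 (1.11 after TMM scaling, which turns its direction). The most abundant, Locus 21042, had an RPKM of 231, 224, 194 and 135, a ratio of 1.03 (0.999 to 1.06). The 4 caffeate O-methyltransferases all leaned to gall flowers within 2-fold, with ratios from 1.36 to 1.65 and a median of 1.51. Laccases, oxidases that polymerise phenolics outside the cell, were higher in gall flowers. Locus 4457 stood at 26.4, 5.27, 7.51 and 3.41 and Locus 9536 at 43.5, 14.4, 58.2 and 6.14, ratios of 5.01 (4.57 to 5.50) and 3.02 (2.85 to 3.21), while Locus 578 had a ratio of 1.31 (1.25 to 1.37). Terpene synthases took no common direction: of 6, 0 were at least 2-fold higher in gall and 1 in seed flowers (1 and 0 after TMM scaling). Germacrene D synthase Locus 20881, at 93.9, 93.3, 457 and 6.23, differed 73.3-fold between receptive gall and receptive seed flowers but had a pollinated ratio of 1.01 (0.95 to 1.07).

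Lists of defence proteins differed from each other, with chitinases, peroxidases, polyphenol oxidases and protease inhibitors leaning to gall flowers and thaumatin-like and disease resistance proteins not. Chitinases, which cleave chitin, had 6 of 7 members at least 2-fold higher in gall and 0 in seed flowers, with a median ratio of 3.05. Class IV chitinase Locus 1182 had an RPKM of 139, 15.4, 18.5 and 1.46 and Locus 230 one of 62.5, 7.16, 5.61 and 1.91. In both, pollinated gall flowers were well above each of the other 3 libraries, and the ratios to pollinated seed flowers were 9.02 (8.16 to 9.99) and 8.73 (7.83 to 9.75). Class I chitinase Locus 20250 was already high in receptive gall flowers, at 418, 137, 588 and 40.7, and had a ratio of 3.05 (2.89 to 3.22). Locus 16739, a chitinase-like protein, stood at 159, 63.7, 191 and 43.7, with a ratio of 2.50 (2.36 to 2.65).

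Beta-1,3-glucanases, which cut callose and fungal wall glucans, had 5 of 17 members at least 2-fold higher in gall and 1 in seed flowers. Locus 3944 stood at 157, 19.99, 36.8 and 8.81, a ratio of 7.86 (7.33 to 8.45), and so was highest in pollinated gall flowers. Locus 124 and Locus 1196 differed less, with ratios of 1.64 (1.59 to 1.70) and 1.99 (1.90 to 2.09). Thaumatin-like proteins were mostly alike in the 2 flower types, with 1 of 16 members at least 2-fold higher in gall and 1 in seed flowers (1 and 0 after TMM scaling). The exception in the gall direction was large: Locus 774 had an RPKM of 301, 25.2, 65.2 and 6.55, a ratio of 12 (11.1 to 12.9). The next most abundant of at least 500 bp, Locus 9895 and Locus 4017, had ratios of 1.23 (1.19 to 1.27) and 0.911 (0.877 to 0.947).

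Peroxidases, which oxidise phenolics with hydrogen peroxide, had 12 of 27 members at least 2-fold higher in gall flowers and 1 in the opposite direction, with ratios from 0.451 to 7.56. Locus 2214 had an RPKM of 614, 332, 81.5 and 42.4, with both pollinated libraries far above both receptive ones, and a ratio of 1.85 (1.79 to 1.91). Cationic peroxidase Locus 5329 stood at 347, 144, 83.6 and 16.1, a ratio of 2.41 (2.33 to 2.49). Locus 633 was almost level at 389, 355, 627 and 656. Polyphenol oxidases, which turn phenolics into quinones, had 4 of 5 members at least 2-fold higher in gall flowers. Locus 3331 stood at 406, 179, 318 and 129 and Locus 10046 at 299, 93.8, 403 and 59.8, ratios of 2.27 (2.22 to 2.32) and 3.19 (3.08 to 3.30).

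Protease inhibitors, which can block digestive enzymes, were above 1 in all 8 members, and 3 were at least 2-fold higher in gall flowers. The inhibitor of amylase and subtilisin Locus 4547 had an RPKM of 136, 19.97, 29.1 and 2.40, a ratio of 6.81 (6.22 to 7.46). Its relative Locus 15897 stood at 169, 109, 4.70 and 1.99, high in both pollinated libraries, and had a ratio of 1.54 (1.48 to 1.6). Lipoxygenases, which open the way to jasmonate, also lay above 1 in all 8 members but reached 2-fold in 2. Locus 2519 had an RPKM of 107, 84.3, 146 and 2.13, a ratio of 1.26 (1.21 to 1.32).

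Transcripts of immune receptors and of pathogenesis-related proteins had no common direction. Of 46 members described as disease resistance proteins, 2 were at least 2-fold higher in gall and 4 in seed flowers (5 and 2 after TMM scaling). Their median ratio of 0.914 was close to that of all members. The most abundant, Locus 16665, stood at 187, 65.8, 80.8 and 33.4, a ratio of 2.85 (2.71 to 2.99). Among 4 pathogenesis-related proteins, 1 was at least 2-fold higher in gall and 2 in seed flowers. Locus 2619, a major latex protein, had an RPKM of 172, 78.3, 19.1 and 5.55 and a ratio of 2.19 (2.10 to 2.29). The PR10 protein Locus 26033 stood at 15.3, 43, 47.7 and 13.3, a seed to gall ratio of 2.82 (2.55 to 3.12) that was reversed in receptive flowers.

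Of the lists of specialised metabolism, that of cytochrome P450 leaned most to gall flowers. Members matched by the cytochrome P450 words numbered 32, of which 13 were at least 2-fold higher in gall and 2 in seed flowers. Locus 1203 had an RPKM of 36.8, 4.30, 5.96 and 1.22, a ratio of 8.55 (7.35 to 10.001), and was several times higher in pollinated gall flowers than in any other library. Locus 1416, the most abundant of those measured in pollinated seed flowers, stood at 34.8, 73.8, 116 and 112, a seed to gall ratio of 2.12 (2.04 to 2.21), and Locus 461, the most abundant in pollinated gall flowers, at 72, 44.2, 90.2 and 43.3, a ratio of 1.63 (1.55 to 1.71). Mandelonitrile lyase, which in other plants releases hydrogen cyanide from mandelonitrile, was represented by Locus 864 at 230.4, 28.5, 130.5 and 11.9, a ratio of 8.08 (7.55 to 8.66). Of 10 glutathione S-transferases, which conjugate toxic compounds, 1 was at least 2-fold higher in gall and 1 in seed flowers (3 and 0 after TMM scaling). The most abundant, Locus 18346, stood at 546, 312, 379.7 and 272, a ratio of 1.75 (1.70 to 1.79). Glycosyltransferases of small molecules split 3 to 2 among 21 members (4 to 0 after TMM scaling), with 11 members above 1 and 10 below.

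Cell wall enzymes differed by member rather than by family. Expansins, which loosen the wall, had 3 members at least 2-fold higher in gall and 3 in seed flowers among 12. Alpha-expansin 1 (Locus 6850), the most abundant of at least 500 bp, was level at 232, 239.5, 344 and 146. Beta-expansin Locus 1860 had an RPKM of 69.95, 235, 40.8 and 138, a seed to gall ratio of 3.36 (3.24 to 3.48). In the other direction, alpha-expansin 5 (Locus 1268) stood at 39.2, 6.88, 31.1 and 7.11, a ratio of 5.69 (4.99 to 6.53). Pectin methylesterases, which remove methyl groups from pectin, had 3 of 13 members at least 2-fold higher in gall and 1 in seed flowers. Locus 3570 stood at 60.1, 6.02, 71.3 and 4.10, a ratio of 9.98 (8.92 to 11.2), and Locus 1257 at 168, 38.5, 217 and 30.9 had a ratio of 4.35 (4.14 to 4.57). The most abundant of at least 500 bp, Locus 171, at 207, 142, 653 and 18.6, had a pollinated ratio of 1.46 (1.40 to 1.53) but a receptive ratio of 35.1. Pectate lyases and polygalacturonases had 3 and 2 of 13 members past 2-fold in the gall and seed directions (3 and 0 after TMM scaling). Polygalacturonase-like Locus 618 stood at 135, 285, 217 and 313, a seed to gall ratio of 2.11 (2.05 to 2.18). An extensin-like structural protein, Locus 10755 (821 bp), had one of the largest ratios of all members, at 75.1, 2.59, 262 and 2.94, or 29.1 (21.8 to 39.6).

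Genes of sugar supply and storage differed by member. All 3 members of sucrose synthase, which splits sucrose for use in sinks, lay above 1, with ratios of 1.43 to 1.81. Of 6 invertases, 2 were at least 2-fold higher in gall and 0 in seed flowers. The acid invertase Locus 2520 had an RPKM of 52.8, 19.4, 14.9 and 1.13, a ratio of 2.72 (2.56 to 2.89), and Locus 4304 stood at 69.9, 28.5, 45.3 and 23.5, a ratio of 2.45 (2.30 to 2.60). Among 13 sugar transporters the 2 past 2-fold pointed in opposite directions (after TMM scaling 1 in gall and 0 in seed flowers). The bidirectional transporter Locus 20921 had an RPKM of 182, 77.2, 9.74 and 1.80, with both pollinated libraries above both receptive ones and a ratio of 2.36 (2.26 to 2.47), whereas the ERD6-like Locus 752 stood at 98, 222, 64.9 and 134, a seed to gall ratio of 2.26 (2.21 to 2.31). Galactinol synthase, which starts the raffinose family of sugars, was higher in gall flowers for Locus 2768, at 26.9, 3.34, 15.1 and 6.91, a ratio of 8.06 (6.91 to 9.46). Granule-bound starch synthase (Locus 299) stood at 114, 196, 213 and 39, a seed to gall ratio of 1.72 (1.67 to 1.78), and was lowest in receptive seed flowers.

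Carriers of nitrogen compounds leaned to gall flowers. Of 19 amino acid and peptide transporters, 5 were at least 2-fold higher in gall and 0 in seed flowers. Peptide transporter Locus 3826 had an RPKM of 106, 27.8, 68.2 and 53.6, a ratio of 3.83 (3.65 to 4.02), and Locus 1289 stood at 26.6, 7.67, 12.7 and 8.64, a ratio of 3.47 (3.17 to 3.80). The most abundant, amino acid transporter Locus 20938, had a ratio of 1.36 (1.29 to 1.44). ABC transporters, pumps for many compounds, had 5 of 40 members at least 2-fold higher in gall and 2 in seed flowers. Aquaporins, the water channels, were lower in gall flowers in 13 of 16 members, with a median ratio of 0.759 (0.864 after TMM scaling). The tonoplast aquaporin Locus 16375 stood at 119, 212, 115 and 218, a seed to gall ratio of 1.78 (1.73 to 1.84).

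Hormone related transcripts took both directions. Of 54 auxin related members, 6 were at least 2-fold higher in gall and 6 in seed flowers (6 and 3 after TMM scaling). An ILR1-like hydrolase, which frees indole-acetic acid from its amino acid conjugates in Arabidopsis, had an RPKM of 67.7, 8.75, 12.6 and 2.44 as Locus 2238, a ratio of 7.73 (6.99 to 8.57). Auxin-induced protein 6B (Locus 13941), of a family of early auxin response genes, stood at 7.25, 30.1, 34.2 and 113, a seed to gall ratio of 4.15 (3.56 to 4.86). The most abundant Aux/IAA repressors, Locus 24660 and Locus 28963, stood at 211, 338, 161 and 336 and at 188, 301, 383 and 149, with seed to gall ratios of 1.6 (1.56 to 1.64) and 1.6 (1.54 to 1.67). Gibberellin related members numbered 6, with 0 at least 2-fold higher in gall and 3 in seed flowers (2 after TMM scaling). The gibberellin-regulated protein Locus 9621 had an RPKM of 33.9, 135, 134 and 510.2, a seed to gall ratio of 3.98 (3.75 to 4.22). Gibberellin 3-oxidase, which makes the active hormone, was represented by Locus 10480 at 8.16, 21.7, 6.37 and 15.3, a seed to gall ratio of 2.65 (2.40 to 2.93).

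Jasmonate related members, by contrast, lay above 1 in 12 of 14. At least 2-fold higher in gall flowers were 4, of which 3 encode TIFY repressors, targets of jasmonate signalling: Locus 2165 at 25.5, 6.72, 10.3 and 5.54, Locus 8236 at 51.1, 17.5, 25.9 and 17.3 and Locus 1686 at 71.6, 27, 37.8 and 43.4. Their ratios were 3.79 (3.34 to 4.31), 2.92 (2.71 to 3.14) and 2.65 (2.49 to 2.82), and in Locus 1686 the receptive libraries were nearly level. The single member at least 2-fold higher in seed flowers was jasmonate O-methyltransferase (Locus 44024), at 10.7, 26.5, 62.5 and 132, with a seed to gall ratio of 2.47 (2.25 to 2.72). Ethylene related members had 1 and 0 of 17 past 2-fold in the gall and seed directions. The ethylene response factor Locus 9993 stood at 178, 70.6, 179 and 27.8, a ratio of 2.52 (2.42 to 2.62).

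Of the transcription factor families, WRKY proteins, many of which act in defence, leaned most to gall flowers, with 5 of 12 members at least 2-fold higher there and 1 in seed flowers. WRKY 40 (Locus 6730) had an RPKM of 21.9, 3.72, 33 and 10.8, a ratio of 5.89 (5.06 to 6.89), and the WRKY 6-like Locus 10467 stood at 43, 9.07, 32 and 2.44, a ratio of 4.74 (4.31 to 5.22). The most abundant, WRKY 44 (Locus 2593), had a ratio of 1.93 (1.84 to 2.03). MYB factors split 3 to 2 among 30 members (4 to 1 after TMM scaling). NAC and bHLH factors had 1 of 15 and 1 of 25 at least 2-fold higher in gall flowers (3 and 3 after TMM scaling). A MYB factor had the largest seed to gall ratio of the members with at least 500 bp: Locus 43533 stood at 1.69, 21.5, 9.37 and 26.3, lowest in pollinated gall flowers, a seed to gall ratio of 12.7 (10.6 to 15.3). MADS-box factors, many of which set floral organ identity, lay below 1 in 13 of 17 members, against 5326 of all 9041 members. Of the 17, 2 were at least 2-fold higher in seed flowers. With TMM scaling 1 was, and 2 were at least 2-fold higher in gall flowers. The AGL15 protein Locus 34189 had an RPKM of 59.9, 163, 25.3 and 173, a seed to gall ratio of 2.72 (2.60 to 2.84).

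**Figure D3:**
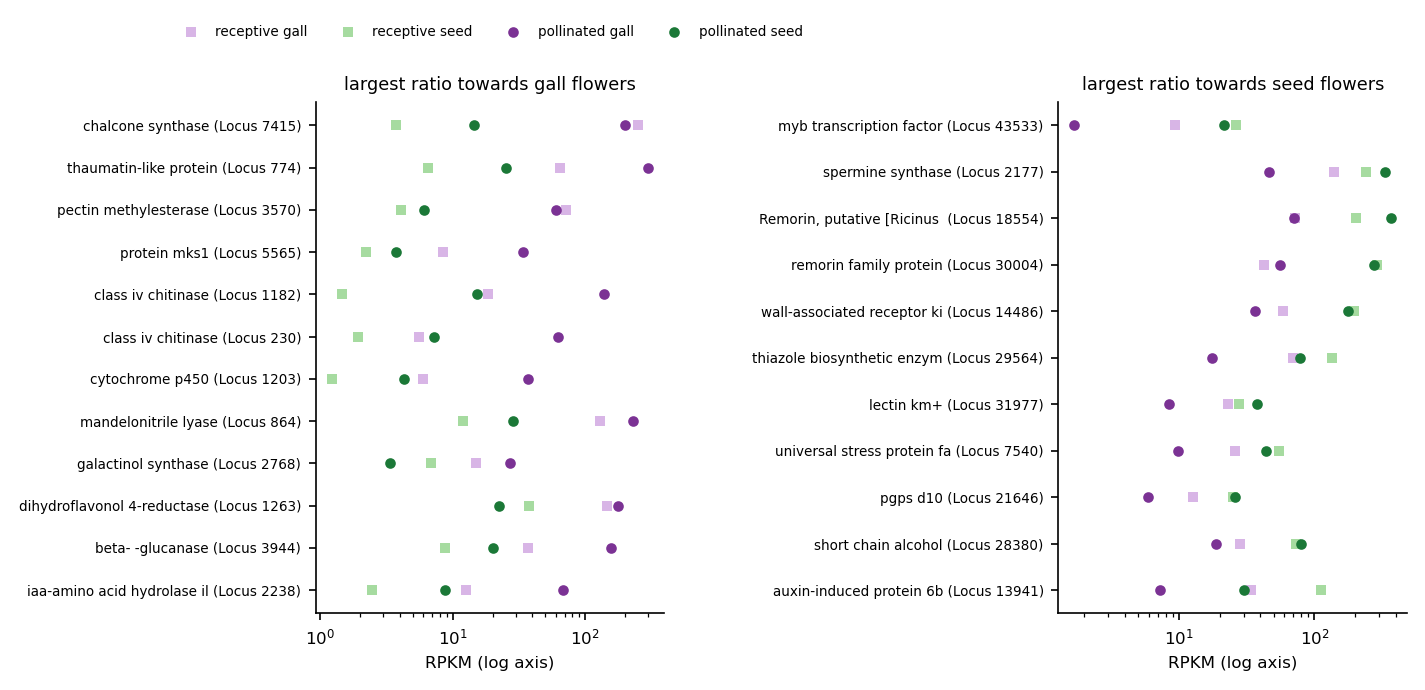
RPKM (log axis) in each of the 4 libraries for the 12 transcripts with the largest gall to seed ratio (left) and 11 of the 12 with the largest seed to gall ratio (right) in pollinated flowers, among members of at least 500 bp with at least 50 reads in each pollinated library and a named function; circles are pollinated and squares receptive flowers, with gall flowers in purple and seed flowers in green. On the left, pollinated gall flowers are highest for 10 of 12 transcripts, and on the right pollinated gall flowers are lowest for 10 of 11.

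Among the transcripts with the largest ratios, MKS1 (Locus 5565), a substrate of a defence kinase in Arabidopsis, had an RPKM of 33.8, 3.73, 8.42 and 2.20, a ratio of 9.06 (7.07 to 11.8). It was highest in pollinated gall flowers, as were the class IV chitinases, the thaumatin-like protein and the P450 described above. The largest ratio of all members was that of a tubulin beta-1 chain, Locus 5303, which stood at 24.3, 0.498, 0.648 and 0.513, a ratio of 48.7 (35.6 to 68.6). Its levels in the other 3 libraries were alike and near 0, unlike the abundant tubulin of Locus 1264 at 138, 162, 173 and 227. A tubulin alpha-1 chain that the receptive read minimum removed, Locus 23657, stood at 44.5, 0.024, 0.01 and 0. Whether Locus 5303 stems from the fig or the wasp was not tested. Only Locus 5303 and the chitinase Locus 230 were at least 8 times higher in pollinated gall flowers than in each other library. Locus 46607, a transcript of 204 bp with no description, had a ratio of 24.2 (14.8 to 42.5) and stood at 85.8, 3.54, 231 and 6.77.

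On the seed side, spermine synthase (Locus 2177), a polyamine enzyme, had an RPKM of 46.1, 331, 139 and 239, a seed to gall ratio of 7.18 (6.95 to 7.42), and was lowest in pollinated gall flowers. Remorins, plasma membrane scaffold proteins, were represented by Locus 18554 at 70.2, 369, 71.5 and 201 and Locus 30004 at 55.6, 277, 42.5 and 289.8, with seed to gall ratios of 5.26 (5.03 to 5.50) and 4.98 (4.79 to 5.19). Both were higher in seed flowers at both stages. The wall-associated receptor kinase Locus 14486 stood at 36.6, 177, 59.1 and 196, a seed to gall ratio of 4.84 (4.62 to 5.09). The thiazole enzyme of thiamine synthesis (Locus 29564) had an RPKM of 17.5, 77.9, 69.995 and 135, a ratio of 4.46 (4.26 to 4.68). Lectin KM+ (Locus 31977), a sugar-binding protein of the mulberry family, stood at 8.47, 37.7, 23.2 and 27.8, a ratio of 4.45 (3.94 to 5.03). A universal stress protein (Locus 7540), PGPS D10 (Locus 21646) and a transcript described only as short chain alcohol (Locus 28380) had seed to gall ratios of 4.45, 4.36 and 4.22. The largest seed to gall ratio without regard to length was that of Locus 49598, a transcript of 195 bp described as UPF0481, at 21, 337, 113 and 148 and a ratio of 16 (14 to 18.4). It was followed by the MYB factor of Locus 43533 and by Locus 51648 (132 bp, no description), at 30.3, 348, 81 and 876.

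Cytosolic ribosomal proteins and cell cycle proteins leaned to seed flowers, by less than 2-fold in most members. Cytosolic ribosomal proteins lay below 1 in 112 of 127 members, against 5326 of all 9041 members. Their median ratio was 0.782 (0.890 after TMM scaling). Only 3 passed 2-fold, all in the gall direction. The most abundant of at least 500 bp, L23 (Locus 32500), had an RPKM of 509.6, 889, 494 and 1088, a seed to gall ratio of 1.74 (1.70 to 1.78). Against the family, S10-like Locus 32651 stood at 124.6, 38.1, 29.3 and 2.75, a ratio of 3.27 (2.95 to 3.64). Cyclins and their kinases lay below 1 in 18 of 20 members, with a median ratio of 0.770 (0.876 after TMM scaling). Histones did not, with a median ratio of 0.968 (1.1 after TMM scaling, which turns its direction). The most abundant of at least 500 bp, H2B (Locus 682), was level in pollinated flowers at 467, 464, 264 and 993 and 3.77 times higher in receptive seed than in receptive gall flowers.

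Heat shock proteins and factors had 1 of 41 members at least 2-fold higher in gall and 6 in seed flowers, but with TMM scaling these counts were 1 and 1. Of the 6, all but Locus 7965 were under 500 bp. The most abundant heat shock proteins of at least 500 bp did not pass 2-fold: Locus 8031 stood at 410.4, 269, 105 and 247, a ratio of 1.52 (1.48 to 1.57), and Locus 223 at 198, 240.4, 219 and 148, a ratio of 0.823 (0.805 to 0.842). Chlorophyll a/b-binding proteins, the antenna of the photosystems and a sign of green tissue, were lower in pollinated gall than in pollinated seed flowers in all 4 members. Their median ratio was 0.577 (0.656 after TMM scaling). In receptive flowers the direction was the opposite, with 3 of the 4 at least 2-fold higher in gall flowers and a median ratio of 2.30. The LHCB1 transcript Locus 264 had an RPKM of 119, 259, 290.1 and 243, a seed to gall ratio of 2.18 (2.11 to 2.25), so that pollinated gall flowers were lowest and the other 3 libraries alike. The photosystem II subunit of Locus 127 stood at 60.3, 113, 131 and 90.2, a seed to gall ratio of 1.87 (1.77 to 1.99).

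Proteases and lipid enzymes had members of both kinds. Cysteine proteinase Locus 310 had an RPKM of 549, 136, 565 and 109.8, a ratio of 4.03 (3.85 to 4.21), and Locus 13503 stood at 563, 224, 416 and 273, a ratio of 2.51 (2.41 to 2.62), whereas Locus 1320 at 233, 363, 20.2 and 52.3 had a seed to gall ratio of 1.56 (1.53 to 1.59). The last was higher in both pollinated libraries than in either receptive one. Subtilisin-like protease Locus 139 was level at 349, 344, 447 and 365. Aspartic proteases had 6 and 5 of 36 members past 2-fold in the gall and seed directions (6 and 3 after TMM scaling). A lipid transfer protein, Locus 38415, stood at 482, 177, 769.6 and 210.4, a ratio of 2.73 (2.62 to 2.84), and another, Locus 13565, at 229, 362, 164 and 548, a seed to gall ratio of 1.58 (1.54 to 1.62). Cysteine proteinase Locus 13840 had the largest ratio of the 13 cysteine proteases, at 293, 56.9, 335 and 16.6, or 5.15 (4.85 to 5.48). Serine carboxypeptidases had 2 and 1 of 12, subtilisin-like proteases 2 and 2 of 11 and GDSL lipases 4 and 3 of 21 past 2-fold in the same order. After TMM scaling these counts were 3 and 1, 2 and 1, and 4 and 2. Of 45 calcium sensors, 4 were at least 2-fold higher in gall and 0 in seed flowers.

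A few smaller lists complete the account. Dehydrins and LEA proteins, which protect cells from drying, had 3 of 6 members at least 2-fold higher in gall flowers. Dehydrin Locus 2112 stood at 57.4, 8.75, 9.70 and 2.59, a ratio of 6.56 (5.49 to 7.90), and the LEA protein Locus 28039 at 33.5, 8.65, 16.7 and 6.96, a ratio of 3.88 (3.34 to 4.52). Among beta-galactosidases, wall enzymes that release galactose, Locus 1085 was the single one of 9 past 2-fold, at 319, 147, 62.2 and 1.47, a ratio of 2.16 (2.12 to 2.21). A fasciclin-like arabinogalactan protein, Locus 28145, was the single one of 7 past 2-fold, at 15.4, 46.3, 15.1 and 60.3, with a seed to gall ratio of 3.01 (2.83 to 3.20). After TMM scaling 1 of the 7 passed 2-fold in each direction. Of 12 starch enzymes, 3 were at least 2-fold higher in gall and 1 in seed flowers (3 and 0 after TMM scaling). The 1 in seed flowers was starch branching enzyme II (Locus 7056) at 16.9, 36.8, 17.2 and 21.6. Cellulose synthases, xyloglucan endotransglucosylases, brassinosteroid related members and the 1 Rubisco member had 1 of 9, 2 of 5, 1 of 5 and 1 at least 2-fold higher in gall flowers and none in seed flowers. The brassinosteroid words did not match the steroid 22-alpha-hydroxylase Locus 39423, which had a seed to gall ratio of 3.62. The receptor-like kinases matched by the list words split 3 to 1 among 22 (4 to 1 after TMM scaling). These words did not match Locus 2110, described as an LRR receptor-like kinase, which had a seed to gall ratio of 3.38. Tubulins and kinesins split 1 to 1 among 21 (1 to 0 after TMM scaling). Carotenoid enzymes had 1 of 2 at least 2-fold higher in seed flowers (0 after TMM scaling). Neither the 4 abscisic acid related members nor the 1 wax enzyme passed 2-fold. No member was found for cinnamoyl-CoA reductase or cytokinin words. The lists held 1095 members in all. Of those past 2-fold, 366 gall-high and 260 seed-high members had a description but stood in no list, and 184 and 119 had no description.

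GO terms, which the deposited table lists per transcript, gave a view that does not depend on the lists, although the same transcripts stand behind both. Among 192 terms carried by at least 20 members, the highest share at least 2-fold higher in gall flowers was that of naringenin-chalcone synthase activity, 30 of 30. Flavonoid biosynthetic process had 49 of 56 and acyltransferase activity 34 of 49. They were followed by lyase activity with 11 of 27, peroxidase activity with 13 of 34 and response to wounding with 13 of 35. Heme binding had 32 of 87 and monooxygenase activity 11 of 33. No term was carried so one-sidedly by seed flowers. The highest share there was that of defense response, 7 of 41, a term for which 11 others were at least 2-fold higher in gall flowers. Next came pectinesterase activity with 3 of 20, nucleoside-triphosphatase activity with 4 of 27 and metal ion transport with 4 of 31. At least 2-fold higher in gall flowers were 4, 0 and 3 members of these terms, so pectinesterase activity had more gall-high than seed-high members. The terms cell part, cellular process, auxin mediated signaling pathway and apoptosis had 4 of 32, 5 of 42, 3 of 26 and 3 of 27, with 2, 3, 1 and 2 gall-high members.

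The 2 receptive libraries share no library with the pollinated pair, so the same members could be read at both stages. Of the 758 members at least 2-fold higher in pollinated gall flowers, 474 (62.5%) were also at least 2-fold higher in receptive gall flowers, where 17.6% of all members were. Of the 450 higher in pollinated seed flowers, 213 (47.3%) were so in receptive seed flowers, against 18.7% of all members. The shared members made up 29.8% of the 1591 gall-high and 12.6% of the 1690 seed-high members of the receptive pair. Across members the log2 ratios of the 2 stages had a Pearson r of 0.508 and a Spearman rank correlation of 0.468. This is a description across transcripts, which are not independent. The ratios were less spread after pollination, with an SD of the log2 ratio of 0.75 against 1.25 in receptive flowers. The receptive seed library was also the shallowest, and the part of depth in this was not tested.

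**Figure D4:**
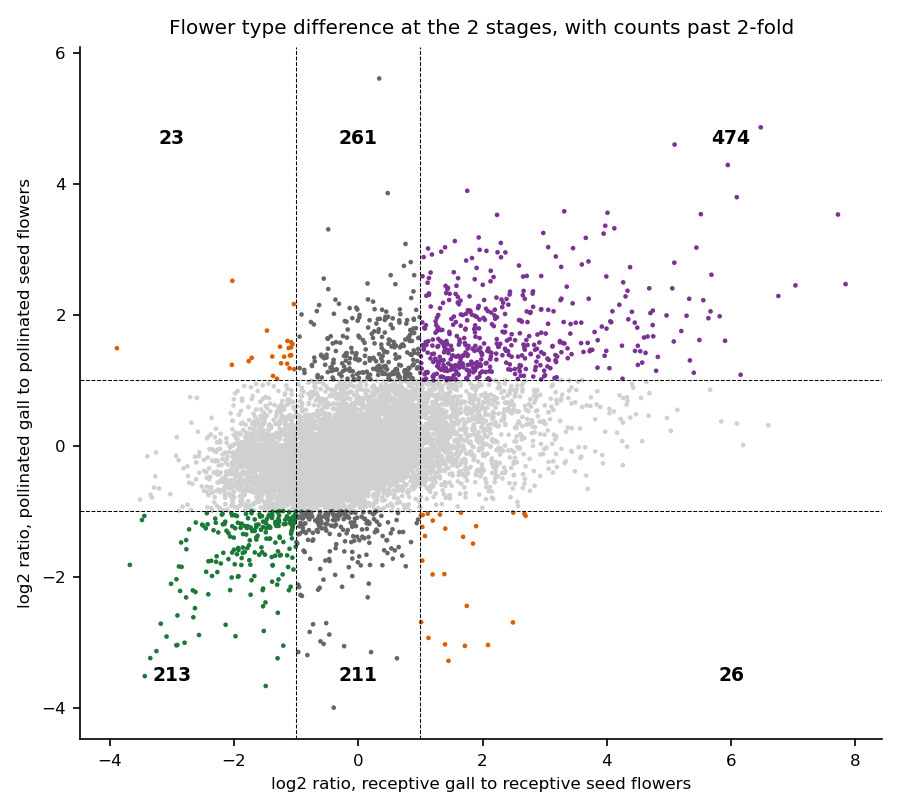
The log2 ratio of gall to seed flowers for each member in receptive (horizontal) and pollinated flowers (vertical), with dashed lines at a 2-fold difference; purple and green mark members past 2-fold in the same direction at both stages, orange in opposite directions and dark grey in pollinated flowers alone. The bold counts show 474 members gall-high and 213 seed-high at both stages, against 23 and 26 with opposite directions.

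A 2-fold difference was present in pollinated but not in receptive flowers for 261 gall-high and 211 seed-high members. Those with the largest ratios among members of at least 500 bp, 50 reads and a named function were looked up after the values had been seen. In the gall direction they were headed by a glycosyl hydrolase with a chitinase insertion domain (Locus 7254), which had an RPKM of 21.9, 3.14, 6.03 and 3.36 and a pollinated ratio of 6.98 (5.71 to 8.63). Its receptive ratio was 1.79 (1.36 to 2.41), within 2-fold but in the same direction. Patatin-like Locus 7755, a lipid acyl hydrolase, stood at 94, 16.9, 4.73 and 4.27, a ratio of 5.57 (5.10 to 6.08), with both receptive libraries below either pollinated one. NHL3 (Locus 19177) and an NDR1-like protein (Locus 40318), relatives of an Arabidopsis disease resistance protein, stood at 71.7, 16.7, 54.7 and 60.2 and at 24.7, 5.86, 18.5 and 14.2, ratios of 4.29 (3.99 to 4.61) and 4.22 (3.45 to 5.20). In both, pollinated seed flowers were below each of the other 3 libraries. The same held for the xyloglucan endotransglucosylase Locus 416, at 44.7, 10.6, 34.6 and 35, a ratio of 4.23 (3.79 to 4.73), and for pectate lyase Locus 4468, at 51, 12.3, 21.7 and 15.9, a ratio of 4.13 (3.77 to 4.53). In the seed direction spermine synthase, described above, came first. Its receptive seed to gall ratio was 1.72 (1.66 to 1.78), also within 2-fold in the same direction. Others included the homeobox factor ATHB-14 (Locus 15421) at 12.1, 49.9, 14.4 and 21.2, a seed to gall ratio of 4.13 (3.92 to 4.35). A serine carboxypeptidase-like protein (Locus 2552) stood at 18.9, 74.1, 5.93 and 7.68, a ratio of 3.93 (3.76 to 4.09), and a steroid 22-alpha-hydroxylase (Locus 39423), a brassinosteroid enzyme in Arabidopsis, at 6.32, 22.9, 15.2 and 16.9, a ratio of 3.62 (3.28 to 3.99). The last was lowest in pollinated gall flowers.

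Other sources of RNA were looked for by words in the descriptions. None of the 490 transcripts of the whole table described with the wasp words was a member, and no member was described as fungal or bacterial. The receptive read minimum was meant to remove wasp transcripts, so the absence of wasp words was largely set in advance. Many descriptions name a protein and no organism, so a wasp transcript without such a word would be missed. The 11 members with pollen in their description had ratios from 0.588 to 1.61. Viral and transposon words matched 21 members, 1 at least 2-fold higher in gall and 2 in seed flowers. Transcripts above the RPKM minimum with under 10 reads in both receptive libraries, which are not members, took 196599 reads from pollinated gall flowers but 318 from pollinated seed flowers. The median length was 1070.5 bp for the gall-high and 984 bp for the seed-high members, against 1583 bp for all. Members under 200 bp passed 2-fold more often in both directions, 13.9% in gall and 11.8% in seed flowers, than those of at least 2000 bp, 5.09% and 3.11%.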

How the data were processed

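RNA from 4 pools of flowers was sequenced as 1 library each. The authors trimmed reads (FastQC 0.10.0 and Trimmomatic 0.22, per the submitters' processing notes), built 1 joint assembly with Oases, of which the longest sequence of every locus was retained, and aligned the reads to it with CLC Genomics Workbench. The deposited read counts, total and unique, are raw counts per transcript. The deposited RPKM was rebuilt from the total counts within 0.0005. A further 12 columns, which repeat used columns, were not used. The sequences of the transcripts were not analysed here. Ratios of RPKM, with exact conditional binomial 95% intervals, were computed in Python 3.11.15 with SciPy 1.17.1 and TMM factors in R with edgeR 4.0.16. With 1 library per group no test over samples is possible. The method was tested on simulated data.

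Members and 74 word lists were chosen with earlier results of these data known, and 17 lists were changed after the descriptions were seen. Named were the 12 largest ratios each way (at least 50 reads in each pollinated library, at least 500 bp, a named function), up to 3 most abundant members of at least 500 bp per list, and the 3 largest ratios each way of any length. Of the first, 1 is not reported here. Other transcripts were named after their values were seen. Alternatives were other scalings, read types, minimums, ratios and Kal's Z-test.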

Additional observations from a re-analysis of the deposited data

Results flagged for a closer look

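Members past 2-fold in opposite directions at the 2 stages were looked at again. There were 23 that were at least 2-fold higher in pollinated gall and in receptive seed flowers, and 26 with the reverse pattern. The difference between the stages was not tested, since each stage has 1 library per flower type.

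In the first set, Locus 187 (584 bp, no description) had an RPKM of 353 in the pollinated gall library, 61.7 in the pollinated seed library, 3.08 in the receptive gall library and 12.6 in the receptive seed library. A germin-like protein (Locus 4560) stood at 89.4, 31.4, 1.5 and 3.59 in the same order, alpha-amylase (Locus 3808), which breaks down starch, at 37.5, 12.8, 25.5 and 53, and a phosphate-induced PHI-1-like protein (Locus 14904) at 121, 42.6, 187 and 396. For the germin-like protein both pollinated libraries were above both receptive ones, and for the PHI-1-like protein both receptive libraries were above both pollinated ones. A sieve element-occluding protein (Locus 2698), a phloem protein, stood at 30.4, 13.5, 11.8 and 24.2.

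In the second set, short transcripts with the same pattern stood out. Locus 28119, Locus 51576, Locus 29679, Locus 40170, Locus 52813 and Locus 52655, of 154 to 382 bp and without a description that names a function apart from UPF0481 for Locus 52655, were highest in pollinated seed flowers, at an RPKM of 748, 1351, 1074, 1384, 596 and 849. In pollinated gall flowers they stood at 76.7, 162, 130.2, 181, 91.9 and 131. Heat shock transcripts of under 500 bp formed another block: Locus 20904 at 419, 981, 978 and 263, Locus 11848 at 346, 711, 729.6 and 114, Locus 21031 at 391, 794, 842 and 149 and Locus 51735 at 528, 1101, 1009.8 and 502. Whether either block consists of pieces of the same gene was not tested. Longer transcripts of this set included a receptor-like kinase (Locus 2110) at 26.4, 89.1, 28.8 and 14.1, a subtilisin-like protease (Locus 19513) at 71.6, 188, 39.1 and 12.1 and a myrcene synthase-like transcript (Locus 5434) at 21.3, 44.1, 106 and 42.7.

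Reads outside the members were the other result. The 138 transcripts above the RPKM minimum that the receptive read minimum left out took 322764 reads in pollinated gall flowers (0.547% of the library), 12978 in pollinated seed flowers, and 37797 and 364 in gall and seed flowers before pollination. They were of 2 kinds. In 58 both receptive libraries had under 10 reads, and all 58 were at least 2-fold higher in pollinated gall flowers. In 80 only the receptive seed library, the shallowest, fell short. Of these, 51 were at least 2-fold higher in pollinated gall flowers and 1 in the opposite direction.

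The second kind holds transcripts described as plant enzymes. An 8-hydroxyquercetin methyltransferase, a flavonoid enzyme (Locus 765), had an RPKM of 108, 26.1, 1.32 and 0.206, in the order pollinated gall, pollinated seed, receptive gall and receptive seed. A beta-glucosidase (Locus 22485) stood at 62.9, 15.7, 3.89 and 0.350, a momilactone A synthase-like protein (Locus 3885) at 27.2, 1.84, 0.867 and 0.181, a cinnamate 4-hydroxylase (Locus 160) at 51, 13.3, 79.1 and 0.751 and a basic endochitinase (Locus 6915) at 20.2, 3.95, 4.25 and 0.411. It also holds a heat shock protein 70 (Locus 169) at 157, 0.632, 0.708 and 0.0780, whose levels outside pollinated gall flowers were near 0. The counts of gall-high members would thus be higher without the receptive read minimum, which cannot tell a wasp transcript from a fig transcript absent before pollination.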

How the results depend on the processing

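No paired analysis was possible because each flower type has 1 library and the labels give no replicate numbers, and for the same reason none could be left out. No alternative turned the order of the median log2 ratio and 0 except TMM scaling, which moved it from -0.12 to 0.067, and setting the median ratio to 1, which makes it 0 by construction. The count of 758 gall-high members was 417 with an RPKM above 20 in both pollinated libraries, 1770 with no RPKM minimum, 1282 with a minimum of 5, 1456 at a ratio of 1.5 and 165 at a ratio of 4. The count of 450 seed-high members was 234, 1860, 1070, 1528 and 70 in the same settings, 291 with at least 500 bp, 288 with TMM scaling and 697 by Kal's Z-test with an adjusted p under 0.05, which compares 2 libraries and not 2 conditions. The other alternatives kept the gall-high count between 532 and 1005 and the seed-high count between 335 and 518. TMM scaling moved 35 of 140 counts for the lists by over 1.5 times, a minimum of 500 bp 12, uniquely mapped reads 2 and the lists as first written 9. Leaving out the 2 members at least 8 times higher in pollinated gall flowers than in each other library, an alternative added after the data were seen, gave 756. The limit set by 0 reads, taken as 3 reads over 1 kb, is an RPKM of 0.0509 for pollinated gall and of 0.135 for pollinated seed flowers. The spread between samples was not measured.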
